A study of Caenorhabditis elegans with 4 samples.

Results

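Regions that both ChIP libraries called at nearly the same place were examined in a ChIP-seq study of the *Caenorhabditis elegans* transcription factor DPL-1. Only regions away from the authors' combined peak list were taken. A region was taken where a peak of ChIP replicate 1 shared at least 1 bp with exactly 1 peak of ChIP replicate 2, that peak had no other replicate 1 partner, the midpoints lay 50 bp or less apart, and the replicate 1 midpoint lay over 1000 bp from every interval of the combined list. Of the 24366 replicate 1 peaks, 1541 (6.32%) met this rule, and they are called recurrent regions here. They were thus chosen by peak positions in both replicates and in the combined list, and what follows describes them with no test. They made up 5.14% of the 30000 replicate 2 peaks. Across the whole genome, 16.0% of replicate 1 peaks had a one-to-one partner within 50 bp by midpoint, mostly on combined peaks, and since the rule itself used this match, nothing is read from that share.

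The study mapped DPL-1 in fed L1 hermaphrodites of strain YL448, which had been fed bacteria at 20 °C and were cross-linked in 2% formaldehyde. It comprised 2 ChIP libraries, precipitated with antibodies against GFP, and 2 input libraries of total chromatin DNA, all 4 from the same strain. YL448 carries the *unc-119(ed3)* III mutation and the insertion vrIs83, in which the promoter of *ges-1* (labelled pGES-1) drives a fusion of DPL-1 with GFP and 3xFlag, ahead of the *dpl-1* 3'UTR and beside a wild-type *unc-119* copy, and the labels record no outcross. The *ges-1* gene encodes an intestinal esterase, so the tagged protein is expected in the gut, in animals whose genotype states no change to the native *dpl-1* gene. Whether the replicates were separate cultures is not stated in the labels. The input libraries and any untagged strain were not analysed here, so a recurrent region is a place called in both libraries, which does not by itself show DPL-1 binding.

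DPL-1 is a worm protein of the DP family. DP proteins pair with E2F proteins to bind DNA, and with the retinoblastoma-related protein LIN-35 they form the DREAM complex, which is known for repressing cell cycle and germline genes in somatic cells. In L1 larvae the intestine is built and working, and its nuclei go on to replicate their DNA during larval growth. A peak list such as those of SPP, the caller named in the files, ends in a long tail of weak intervals. IDR, the irreproducible discovery rate, compares the order of peaks in replicate lists and is used to choose where such a tail is to be cut. The recurrent regions were chosen by position and not by strength. They lie away from the combined list, at places where the paired peaks had midpoints 50 bp or less apart. No gene name or sequence is given for them, because no genome or annotation of WormBase build WS220, the build of the files, was used here, and whether any lies at a gene carried by the transgene was not examined.

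The recurrent regions were spread over both lists except their very top. Each peak carries a score given by the authors and a number that ends its name, with 1 for the strongest, and scores are comparable only within a list. The numbers of the recurrent regions spanned 2228 to 24322 in replicate 1, with a median of 11218, and 1949 to 29971 in replicate 2, with a median of 13549. The middle 50% of them lay between numbers 6353 and 17444 in replicate 1 and between 6891 and 21226 in replicate 2. Their scores had a median of 0.120 in replicate 1, where the ceiling of the list is 3.63, and of 0.245 in replicate 2, where it is 3.72. By comparison, the whole lists had a median score of 0.0993 in replicate 1 and 0.206 in replicate 2, and the peaks away from combined intervals had median numbers of 13928 in replicate 1 and 16792 in replicate 2. The typical recurrent region was thus somewhat stronger than the typical peak of either list. None of the recurrent regions reached the ceiling in replicate 1, against 8.70% of all replicate 1 peaks, and 20 did in replicate 2, against 8.72% of all replicate 2 peaks. The combined list was made from the same libraries and had already taken most of the strongest peaks, so the near absence from the ceiling follows from the choice of regions.

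All 1541 recurrent regions had the usual peak width, which was 344 bp for replicate 1 and 284 bp for replicate 2. The 646 replicate 1 peaks and 555 replicate 2 peaks of any other width all lay within 1000 bp of a combined interval, so no replicate 1 peak of unusual width was eligible. The rule set no such distance for the replicate 2 midpoint, which lay within 1000 bp of a combined interval in 1 recurrent region. No interval among the recurrent regions was entered more than once.

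Recurrence was compared with rotation, in which every replicate 2 peak is moved along its chromosome by the same share of the span, from 1% to 99% in steps of 1%, and the same rule is applied again. Rotation keeps the number, width and clustering of the peaks and breaks their alignment. The 1541 recurrent regions stood beside a mean of 525 pairs over 99 rotations, with 475 in the lowest and 593 in the highest, a ratio of 2.94. Unaligned lists thus gave a mean of 525 such pairs, and no single recurrent region can be told apart from an accidental one by this count. Moving replicate 2 by only 5 to 50 kb in either direction, which keeps the regional density of peaks, gave a mean of 532 pairs (504 to 579 over the shifts) and a ratio of 2.89. Leaving out all peaks of both lists within 1000 bp of a combined interval before rotating gave 437 pairs (386 to 492) and a ratio of 3.53. In this last setting the moved peaks can land in stretches from which replicate 1 peaks had been removed, and in the first the strong replicate 2 peaks, which normally sit on combined intervals, are moved onto weak replicate 1 peaks.

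The distance between midpoints showed the pattern most directly. Among the 5461 one-to-one pairs away from combined intervals, 428 had midpoints 10 bp or less apart, against a mean of 109 after rotation (76 to 132). Pairs 11 to 20 bp apart numbered 318, against 103 (77 to 120). The counts then lay at 267, 268 and 260 in the next classes of 10 bp, up to the limit of 50 bp, each against a rotated mean of 103 to 105. The rotated profile was almost flat, whereas the deposited lists were highest at the smallest distances.

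The counts did not fall across the limit of 50 bp, where 279 pairs had midpoints 51 to 60 bp apart and 282 had midpoints 61 to 70 bp apart, beside 260 in the last class inside it. Just inside it, 34 pairs had midpoints 50 bp apart and 22 had midpoints 49 bp apart. Just outside, 35 pairs had midpoints 51 bp apart and 29 had midpoints 52 bp apart. The 1214 pairs 51 to 100 bp apart exceeded the rotated mean of 523 by a ratio of 2.32, the 912 pairs at 101 to 150 bp by 1.70 and the 752 at 151 to 200 bp by 1.41. At 241 bp or more the deposited lists had fewer pairs (584) than rotation gave (mean 722, lowest 665). On combined peaks the pairs were tighter, since 80.7% of 2754 pairs had midpoints 50 bp or less apart (95% exact binomial interval 79.2 to 82.1). That share was 30.9% (26.7 to 35.5) among 446 pairs near but not on a combined interval, 28.2% (27.0 to 29.4) among those away from combined intervals, and 16.1% in rotated pairs. All such intervals here cover counting error only, and treat neighbouring peaks as independent.

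**Figure D1:**
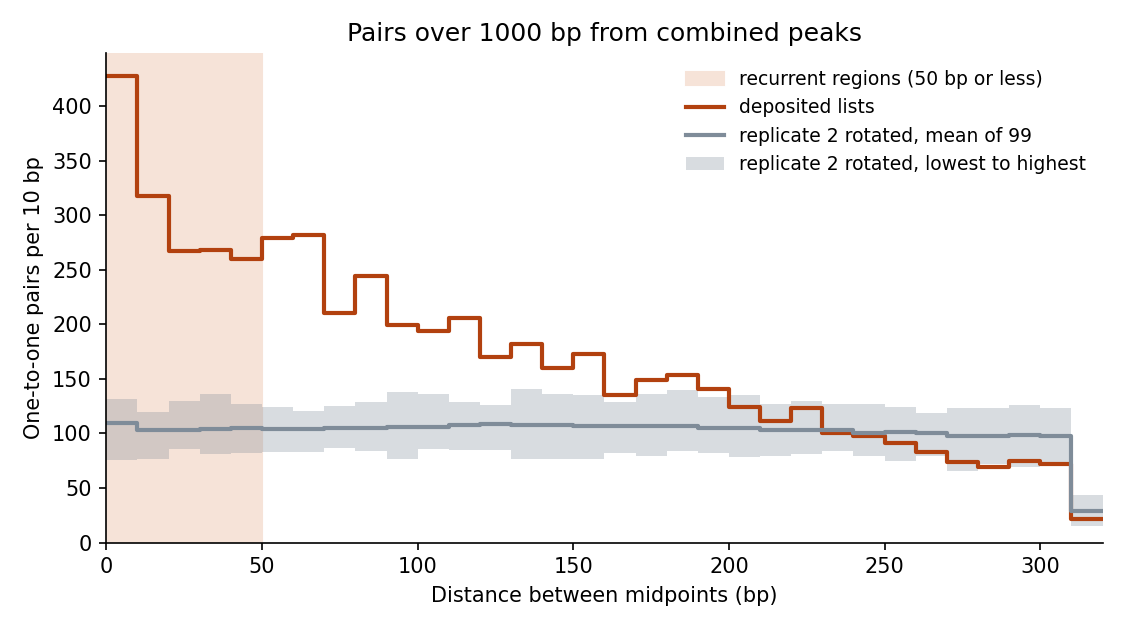
One-to-one pairs of replicate peaks over 1000 bp from combined intervals (y axis, pairs per 10 bp) by the distance between midpoints (x axis, bp), for the deposited lists (line) and for 99 rotations of replicate 2 (line for the mean, band from lowest to highest). The recurrent regions are the shaded part up to 50 bp, where the deposited lists hold 260 to 428 pairs per class and the rotated means lie between 103 and 109.

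Within the 50 bp, offsets to either side were about equally common. The replicate 2 midpoint lay to the right of the replicate 1 midpoint in 742 recurrent regions, to the left in 762 and at the identical base position in 37. The median signed offset was 0 bp, and the median distance without sign was 21 bp (9 to 35 for the middle 50%). Regions with midpoints 10 bp or less apart had a median number of 10888 in replicate 1 and 13332 in replicate 2, and regions 41 to 50 bp apart had 10699 and 15689.

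The 12 recurrent regions ranked best by the weaker of their 2 peak numbers were spread over all 6 chromosomes. Chromosome X held 4 of them, chromosomes I, II and IV held 2 each, and chromosomes III and V held 1 each. Every one of the 12 was numbered between 2613 and 3949 in both lists.

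The best of all lay on X, at 9547237 to 9547580 in replicate 1 (number 3506, score 1.16) and at 9547255 to 9547538 in replicate 2 (number 3390, score 2.11). Its midpoints lay 12 bp apart, and the nearest combined interval was 1425 bp away. Another on X lay at 2707145 to 2707488 (number 3949, score 0.872) in replicate 1 and at 2707176 to 2707459 (number 2925, score 2.81) in replicate 2. Its midpoints lay 1 bp apart, the closest of the 12, and it was 18.5 kb from the combined list. Since the 12 were ranked by the weaker number, low numbers in both lists follow from their choice.

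A further X region, at 14562363 to 14562706 in replicate 1, was number 3871 there and number 3761 in replicate 2, with midpoints 35 bp apart. The last of the 4 on X lay at 17636479 to 17636822, close to the right end of the chromosome, with numbers 3877 in replicate 1 and 2921 in replicate 2. It lay 26.0 kb from the combined list.

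The best on chromosome III, at 10415726 to 10416069, was number 3708 in replicate 1 (score 0.992), and it was the only one of the 12 at the score ceiling of replicate 2 (number 2613, score 3.72). On chromosome II, the region at 5379596 to 5379939 had numbers 3737 in replicate 1 and 3168 in replicate 2, and lay 1674 bp from a combined interval. The second on II, at 14290781 to 14291124, was one of 3 among the 12 with a lower number in replicate 1 than in replicate 2, at 3292 and 3905. The other two were the region on chromosome I at 13395261 to 13395604 (3715 and 3823) and one on chromosome IV at 17380246 to 17380589 (3542 and 3911). Replicate 1 holds 24366 peaks and replicate 2 holds 30000, so these lower numbers do not show a better place in replicate 1.

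The region on chromosome IV just named was the most isolated of the 12, at 81.0 kb from the nearest combined interval. The better one on IV lay at 15049641 to 15049984 and had numbers 3838 in replicate 1 and 3436 in replicate 2. On chromosome I the second region lay at 9176147 to 9176490 (3846 and 3224), and the single one on chromosome V lay at 13459304 to 13459647 (3928 and 3099). The midpoints of the 12 lay 1 to 50 bp apart, and the chromosome I region at 13395261 was at the limit of 50 bp.

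Other well-ranked recurrent regions at that limit were a recurrent region on chromosome I at 13688651 to 13688994 (numbers 3969 in replicate 1 and 2906 in replicate 2) and one on IV at 12621769 to 12622112 (3670 and 4114). Left out by 1 bp, with midpoints 51 bp apart, were 3 pairs on IV at 7910292 to 7910635 (3756 and 4331), 8036486 to 8036829 (4723 and 3188) and 4788374 to 4788717 (5373 and 3043). At the other threshold, the recurrent region nearest to a combined interval lay on II at 4857278 to 4857621, 1000.5 bp away (5287 and 4751). The next were on I at 4534770 to 4535113 (1017.5 bp away, numbers 11748 and 3991) and on V at 11536777 to 11537120 (1028.5 bp away, numbers 22558 and 12059). Pairs left out because they lay 977.5 to 988.5 bp away were V at 9788770 to 9789113 (4283 and 4237), V at 5577157 to 5577500 (6517 and 14311) and IV at 11147834 to 11148177 (7729 and 28499). The peak numbers of these few regions overlapped on either side of both limits. Those at 50 bp were well-ranked examples among many at the same distance. So small a choice cannot show how peak numbers change across a limit.

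The strengths of the recurrent regions were only weakly related between the 2 libraries. Across the 1541 recurrent regions Spearman's rho between the peak numbers was 0.19, as a description over regions that share 2 libraries. It was 0.18 over the 3920 pairs away from combined intervals with midpoints over 50 bp apart, 0.85 over the 2754 pairs on combined intervals, and a mean of -0.0025 over the 99 rotations (-0.11 to 0.11). Between the scores, rho was 0.19 over the recurrent regions and 0.18 over the pairs over 50 bp apart. Over pairs on combined intervals it was only 0.40, and their median score lay at the ceiling of both lists, where scores are tied. With only the stronger 50% of each list, 563 recurrent regions remained and rho between the peak numbers was 0.016. Cutting both lists narrows the range of numbers, which by itself can lower rho. The comparison pairs were not cut in this way, so the drop does not show less agreement among stronger regions. Expressed as a place in the list from 0 to 100%, the recurrent regions differed between replicates by a median of 22.8 percentage points, pairs away from combined intervals with midpoints over 50 bp apart by 23.2, pairs on combined intervals by 1.28 and rotated pairs by 28.0. The difference exceeded 50 points in 253 recurrent regions (16.4%), against 16.4% of the pairs over 50 bp apart and 22.2% of rotated pairs. It was 10 points or less in 383 recurrent regions (24.9%), against 24.4% of the pairs over 50 bp apart and 19.3% of rotated pairs. In these measures the recurrent regions were close to the other pairs away from combined intervals. The combined list was made from the same libraries, and IDR, named in the files, compares the order of peaks between replicates. Close agreement of peak numbers on combined intervals, and weaker agreement away from them, can therefore follow from how that list was chosen, and nothing is read from that contrast.

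Some single regions show how far the strengths can part. The recurrent region with the lowest number in replicate 1, on chromosome IV at 15473841 to 15474184, was number 2228 there (score 3.17) and number 28239 in replicate 2 (score 0.0292), although the midpoints lay 17 bp apart. A region on X at 5213003 to 5213346 had number 2540 in replicate 1 but 23310 in replicate 2. The recurrent region with the lowest number in replicate 2, on chromosome V at 6323010 to 6323353, was number 1949 there and number 10382 in replicate 1. One on chromosome I at 7759062 to 7759405 took place 2059 in replicate 2 but 20078 in replicate 1 (score 0.0257). In contrast, a region on IV at 13244748 to 13245091 held places 2415 in replicate 1 and 4579 in replicate 2, with midpoints 8 bp apart. These regions were picked after their values had been seen. The 20 recurrent regions at the replicate 2 ceiling had replicate 1 numbers from 3708 to 20078, with a median of 8834, and 9 of them were numbered above 10000 there.

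The ratio to rotation varied with peak number, and how it varied depended on which peaks were rotated. When all replicate 2 peaks were rotated, 51 regions had numbers of 5000 or better in both lists, against a rotated mean of 6.74 (1 to 14), a ratio of 7.57. The highest of the 16 classes formed from both numbers was then replicate 1 up to 5000 with replicate 2 at 5001 to 10000, with 77 regions against 7.34 and a ratio of 10.5. With numbers above 20000 in both there were 90 regions, against 36.1 (24 to 55), a ratio of 2.49. The ratio was under 2 in 3 classes, 2 of them with replicate 2 up to 5000: it was 1.15 and 1.76 where the replicate 1 numbers were above 20000 and 10001 to 20000, and 1.98 for replicate 1 above 20000 with replicate 2 at 10001 to 20000.

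When only peaks away from combined intervals were rotated, 1541 pairs were found, 1540 of them shared with the recurrent regions. This breakdown was chosen after the data had been seen. The class with 5000 or better in both lists then had the highest ratio, 21.6 (51 regions against 2.36, with 0 to 7 over the rotations), the class above 20000 in both had 2.62, and the lowest ratio was 2.10.

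By replicate 1 number alone, rotating all replicate 2 peaks gave a ratio of 6.05 for numbers up to 5000 (258 regions against 42.6) and 2.17 above 20000. Rotating only peaks away from combined intervals gave 7.22 up to 5000, 4.07 for 5001 to 10000, 3.35 for 10001 to 15000, 2.73 for 15001 to 20000 and 2.59 above 20000. By replicate 2 number, rotating all peaks gave a ratio of 2.70 up to 5000 (237 against 87.8), 4.27 for 5001 to 10000 and 2.54 above 20000. Within the first of these classes, numbers up to 2500 had 12 regions against 44.6, fewer than the lowest rotation (21), since most of those peaks sit on combined intervals in the deposited lists, and numbers 2501 to 5000 had 225 against 43.3. Rotating only peaks away from combined intervals gave 7.69 up to 5000 (236 against 30.7), 4.80 for 5001 to 10000, 2.99 for 10001 to 15000, 3.02 for 15001 to 20000 and 2.68 above 20000. The share of eligible replicate 1 peaks that were recurrent regions was 15.7% (13.95 to 17.5) for numbers 2501 to 5000 and 5.69% (5.0003 to 6.43) above 20000. The same share in replicate 2 was 13.6% (11.98 to 15.3) and 4.73% (4.31 to 5.18). Numbers up to 2500 held only 2 recurrent regions by replicate 1 and 12 by replicate 2, because few of those peaks, 31 and 84, lay away from combined intervals. The strong classes were nevertheless a small part of all. Of the 1541 regions, 311 were numbered 10000 or better in both lists, and 570 were numbered above 10000 in both. Replicate 1 holds 24366 peaks and replicate 2 holds 30000, so the same number is a different place in each list.

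**Figure D2:**
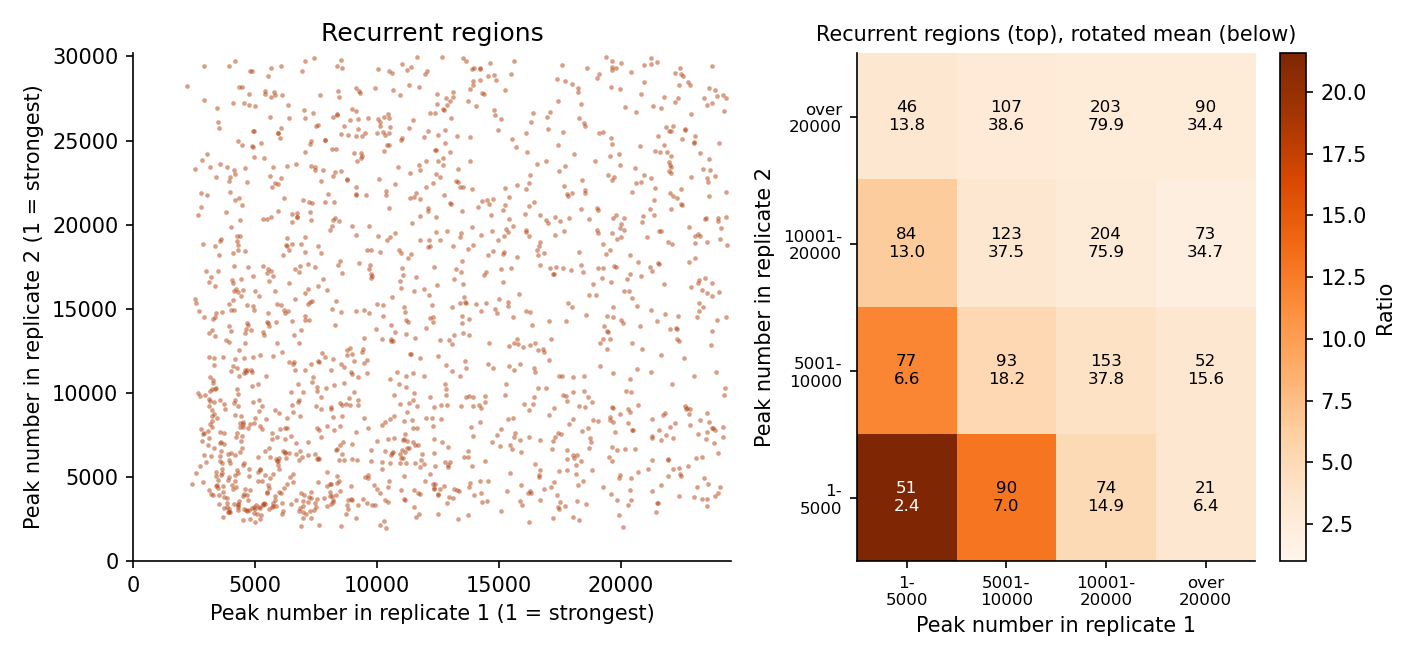
Left, the peak number of each recurrent region in replicate 1 (x axis) and replicate 2 (y axis), where 1 is the strongest. Right, the count of pairs found by the rule among peaks away from combined intervals (upper value of a cell) and the mean over 99 rotations of those peaks (lower value) by classes of peak number, coloured by their ratio: 51 against 2.4 where both numbers are 5000 or better, and 90 against 34.4 where both are above 20000.

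Recurrent regions were found on every chromosome, at 2.58 to 3.24 times the rotated mean. Chromosome V held the most, 301 (19.5%, interval 17.6 to 21.6), against 92.9 after rotation (68 to 121), a ratio of 3.24. Chromosome IV held 261 against 101 (75 to 123), with the lowest ratio of 2.58. Chromosome I held 260 against 85.6 (67 to 109), chromosome II 232 against 73.3 (57 to 93), chromosome III 243 against 88.0 (72 to 116) and X 244 against 83.7 (58 to 105). On each of the 6 chromosomes the deposited lists lay above the highest of the 99 rotations.

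Per megabase of the span covered by peaks, the chromosomes ranged from 13.8 to 17.6 recurrent regions. Chromosome III had 17.6 recurrent regions per Mb (95% exact Poisson interval 15.5 to 20.0), I had 17.3 (15.2 to 19.5), II 15.2 (13.3 to 17.3), IV 14.9 (13.2 to 16.9), V 14.4 (12.8 to 16.1) and X 13.8 (12.1 to 15.6). The intervals of each chromosome and the next in this order overlapped. Those of III and X, at the ends of the order, overlapped only between 15.5 and 15.6, and their difference was not tested. Of the eligible replicate 1 peaks, recurrent regions made up between 6.92% (6.13 to 7.77) on IV and 8.53% (7.56 to 9.58) on I. The medians of the peak number ranged from 10484 on IV to 12508 on X in replicate 1 and from 11419 on III to 16312 on V in replicate 2.

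**Figure D3:**
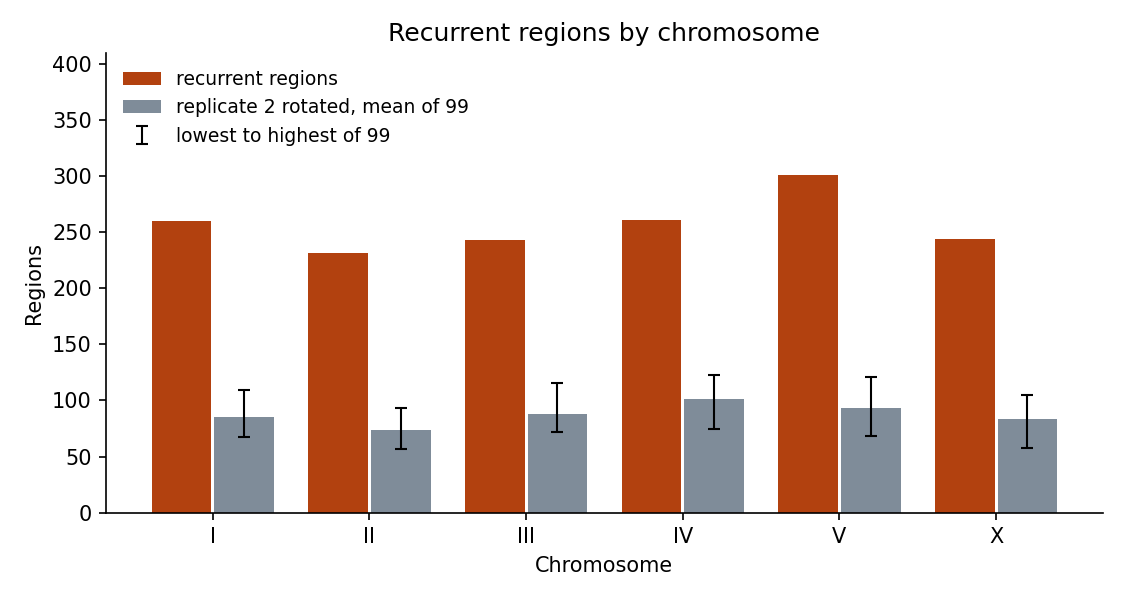
Recurrent regions per chromosome (left bar of each pair) and the mean number of pairs under the same rule over 99 rotations of replicate 2 (right bar, with a line from lowest to highest). The 232 to 301 recurrent regions of each chromosome lie above the highest rotated count, which ranged from 93 to 123.

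X held recurrent regions at a share near that of all eligible replicate 1 peaks, and above that of pairs on combined intervals. Of the 1541 regions 244 were on X (15.8%, interval 14.05 to 17.8). The share on X was 15.6% (14.5 to 16.8) in pairs away from combined intervals with midpoints over 50 bp apart, 16.0% in rotated pairs (11.7 to 19.4 over the rotations), and 16.9% (16.4 to 17.4) in all eligible replicate 1 peaks. In pairs on combined intervals it was 9.55% (8.48 to 10.7), an interval that does not meet that of the recurrent regions. X covers 17.7% of the span. Among the 311 regions numbered 10000 or better in both lists, 40 lay on X (12.9%, 9.35 to 17.1), and among the 570 numbered above 10000 in both, 100 did (17.5%, 14.5 to 20.9). These intervals overlap, so no difference by strength is shown within the recurrent regions. The interval of the 311 also overlaps that of pairs on combined intervals. Those pairs had median numbers of 1500.5 in replicate 1 and 1509.5 in replicate 2, so the contrast with all recurrent regions is not matched for strength.

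On the autosomes the recurrent regions leaned to the middle of the chromosomes. Of 1297 autosomal regions, 718 (55.4%, interval 52.6 to 58.1) were central, that is between 25% and 75% of the way along the span. This share was 55.6% (53.8 to 57.3) in pairs with midpoints over 50 bp apart, 59.6% (57.7 to 61.5) in pairs on combined intervals and 52.1% (51.4 to 52.9) in eligible replicate 1 peaks. Rotation gave a mean of 51.8%, with a range of 44.4 to 59.9 that contains the value of the recurrent regions. Chromosome V had 60.8% (55.0 to 66.3) at its centre, against 54.3% in rotated pairs, and IV had 47.9% (41.7 to 54.1) against 47.5%. When the 5 autosomes were cut into 10 equal parts, the ratio to rotation was highest in the fifth and the sixth part, 3.43 and 3.46, and lowest in the ninth, 2.56. Rotation moves peaks between the arms and the centre, so these comparisons cannot tell closer pairing from a higher density of both lists in the centre. The shifts of 5 to 50 kb, which keep regional density, were counted only over the whole genome. X had 52.0% (45.6 to 58.5) in the centre, and rotated pairs had 53.3%.

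**Figure D4:**
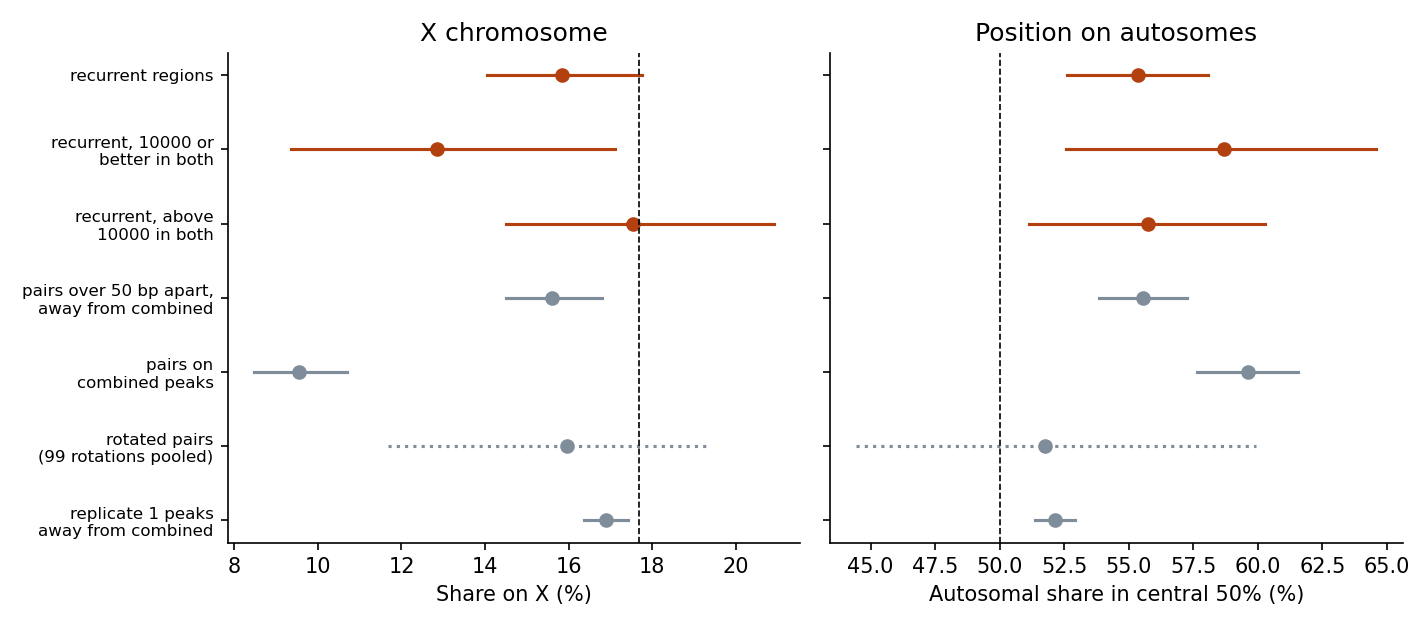
Share of regions on X (left) and share of autosomal regions in the central 50% of the chromosome (right), in percent, for the recurrent regions and their classes of peak number (upper 3 rows) and for the comparison groups (lower 4 rows). Solid lines are 95% exact binomial intervals, dotted lines run from the lowest to the highest of 99 rotations, and dashed lines mark an even spread over the span. The recurrent regions lie at 15.8% on X, between pairs on combined peaks at 9.55% and the even spread at 17.7%.

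Recurrent regions were not confined to the surroundings of combined peaks. The median distance from a recurrent region to the nearest combined interval was 11.4 kb, against a mean of the medians of 12.4 kb in rotated pairs (10.6 to 14.8). At 1 to 2 kb from a combined interval, 146 recurrent regions made up 9.68% (8.23 to 11.3) of replicate 1 peaks, a ratio of 3.73 to rotation (39.1 pairs). At 2 to 5 kb the share was 8.64% (7.69 to 9.66), and in the 4 classes beyond it lay between 7.11% and 7.60%. Farther than 50 kb from any combined interval there were still 159 recurrent regions, 7.60% (6.50 to 8.82) of replicate 1 peaks there, at 2.94 times the rotated mean of 54.2.

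**Figure D5:**
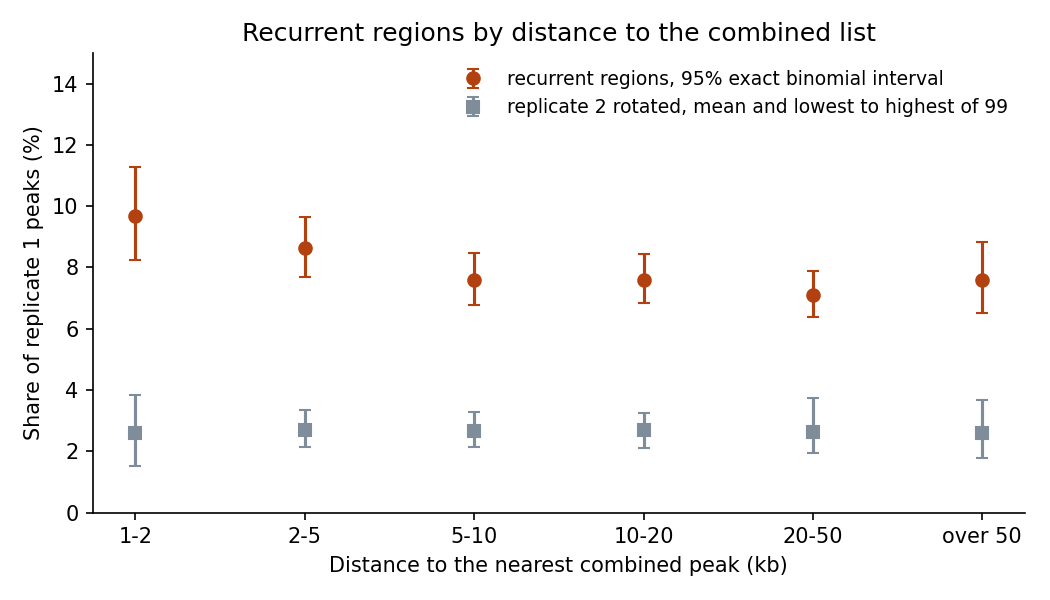
Share of replicate 1 peaks that were recurrent regions (circles, with 95% exact binomial intervals) and the same share after rotating replicate 2 (squares, mean with the lowest to highest of 99), by distance to the nearest combined peak in kb. The share is 9.68% at 1 to 2 kb and 7.60% beyond 50 kb, and the rotated counts lie below it in every class.

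The farthest recurrent regions lay together on chromosome V, in a stretch of 621 kb from 2694754 to 3315309 that holds no combined peak. The farthest was at 3004290 to 3004633, 309.7 kb from the nearest combined interval, with number 6139 in replicate 1 (score 0.353) and number 18218 in replicate 2 (score 0.145), and its midpoints lay 8 bp apart. The next were at 2982094 to 2982437 (numbers 23204 and 14841) and at 3037602 to 3037945 (10289 and 24367). The whole stretch held 112 replicate 1 peaks, 130 replicate 2 peaks and 8 recurrent regions, against a rotated mean of 2.79 (0 to 7). The best numbers among these 8 were 3385 in replicate 1 and 6151 in replicate 2. The stretch was picked after its values had been seen.

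Recurrent regions were also counted in windows of 100 kb. Over 1003 windows that held a combined peak, an eligible replicate 1 peak or a recurrent region, Spearman's rho between the number of recurrent regions and that of eligible replicate 1 peaks, of which they are a part, was 0.32. With the number of combined peaks it was 0.18. The fullest window held 9 recurrent regions, and 226 windows held none. Neighbouring windows and all counts share the same libraries, so these are descriptions.

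Most recurrent regions stood alone. The median distance to the nearest other recurrent region was 20.8 kb, and 105 regions (6.81%, interval 5.61 to 8.19) lay within 2000 bp of another by midpoint. Rotated pairs had 2.32% (0.765 to 4.91), but they were far fewer, with a mean of 525, and closeness rises with number. The far more numerous pairs with midpoints over 50 bp apart had 16.3% (15.2 to 17.5), and the 2754 pairs on combined intervals had 15.4% (14.03 to 16.8). Linked by steps of 2000 bp or less, the recurrent regions formed 1436 single regions, 45 groups of 2 and 5 groups of 3.

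The groups of 3 were on chromosome III at 2970237 to 2973252, on V at 6212743 to 6214831, 11856397 to 11860343 and 14092347 to 14095292, and on X at 4016098 to 4019297. In the group on III all 3 regions were stronger in replicate 2, with numbers of 7417, 6598 and 8452 there, against 21246, 17767 and 15357 in replicate 1. The first group on V held 2 of the better regions of replicate 1, numbers 3370 and 3410, which were numbers 10203 and 5064 in replicate 2. The last group on V held one numbered 2734 in replicate 1 and 5653 in replicate 2. The 3 regions on X had numbers of 4851, 13215 and 10611 in replicate 1 and 13724, 17387 and 6410 in replicate 2.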

How the data were processed

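ChIP-seq peak lists of 2 DPL-1 GFP ChIP libraries and 1 combined list were used, with groups taken from the sample titles. The deposited intervals refer to build WS220 of WormBase, per the file headers, and the method column names SPP and IDR. The aligner, filters, thresholds and the selection of the combined list are not stated in the material used here. The score in each list is the authors' own deposited value, on a scale that no header explains. The lists give no read counts, so the depth behind a peak is unknown and precision is limited to the counting of peaks.

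Distances from a combined interval ran from the replicate 1 midpoint to the interval's edge. Chromosome spans were bounded by the outermost peaks of the 3 lists. The 99 rotations were evenly spaced and involve no random draw. Shares have 95% exact (Clopper-Pearson) intervals. No p-values are given, because the regions were chosen from the same libraries. The regions, the rule and the classes were chosen with earlier results of these data known. Named regions are the 12 with the best weaker number, the best of each chromosome, 3 on either side of each threshold, the 3 farthest from the combined list and the largest groups. Some of the regions with the lowest numbers in either list were also named, and these were picked after their values had been seen. Promoters, motifs and genes had been planned for an annotation of WS220 and are not analysed here. The pairing and the rotation were tested on simulated lists of randomly placed peaks with planted pairs. That test left out the rule on distance from combined intervals and did not imitate the clustering of real peaks. Python 3.11.15, numpy 2.4.6, pandas 2.3.3, scipy 1.17.1 and matplotlib 3.10.9 were used.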

Additional observations from a re-analysis of the deposited data

How the results depend on the processing

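Of 57 alternative values for the tabulated results, 43 stayed within the 95% interval of the reported value, or within a factor of 1.5 for the number of regions, and 14 moved. For the ratio to rotation that interval, 2.80 to 3.08, takes the rotated mean as fixed. It leaves out the spread over the rotations, so a ratio counted as moved can lie within that spread. The share on X and the central share of autosomal regions moved in none of the 7 settings tried for each. The settings reuse many of the same regions, so staying within the interval is partly built in. With midpoints 25 bp or less apart there were 885 recurrent regions, the ratio to rotation was 3.35 and 4.97% lay within 2000 bp of another. With 100 bp these values were 2755, 2.63 and 11.3%. The count follows from the width of the limit. With the stronger 50% of each list there were 563 regions, with a ratio of 4.73, median numbers of 6293 in replicate 1 and 7030 in replicate 2, a rho of 0.016, and 3.20% within 2000 bp of another. Fewer peaks enter that setting by construction, and the narrower range of numbers can by itself lower rho. With 50% reciprocal overlap 8.38% lay within 2000 bp of another. Rotating only peaks away from combined intervals gave a ratio of 3.53. Requiring the replicate 2 midpoint also to lie over 1000 bp from combined intervals, added after the data had been seen, left 1540 regions. A setting without one replicate has no value, since the rule needs both. No paired analysis was possible because replicate numbers are shared only with input libraries, which were not analysed here. Read depth is unknown, so absence from a list does not show absence of binding.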
